A study of Homo sapiens with 60 samples.

Results

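The astrocyte-derived human line 1321N1 was exposed to mercury for 1.5 h, the earliest sampling time, and compared with cells left non-treated for the same 1.5 h. The comparison took 6 of the 60 samples of the series: the 3 libraries labelled with 20 µM mercury chloride at 1.5 h and the 3 non-treated libraries of that time. All cells were grown and exposed in full medium with serum and antibiotics. The remaining samples held the later mercury times (3, 6, 12, and 24 h), the arsenic and cadmium treatments (2.55 µM sodium metaarsenite and 2.3 µM cadmium chloride), and the matching non-treated cells, with 3 libraries in each of 20 groups. RNA was sequenced from its 3′ end, so that a transcript gives about the same number of reads whatever its length, and the authors deposited the reads counted per gene. The 6 libraries held 2467162 to 3984283 counts, and 3 counts corresponded to 0.753 to 1.22 CPM, the standard unit of counts scaled to the size of the library. The series' design text describes the triplicates as technical, so p values may cover only the spread between preparations of one culture. The cell line is a single line, and its labelled origin was only partly visible in its transcripts: of 12 astrocyte markers, GFAP, S100B, AQP4, and ALDH1L1 were at 0 counts in all 6 libraries, whereas VIM (mean 4961.1 CPM in non-treated cells), CD44, and SOX9 were expressed.

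Mercury ions bind thiol groups, and with them the cysteines of proteins and glutathione. Cells answer such stress through several transcription factors. Among them are MTF1, which senses zinc and drives metallothioneins, HSF1, which is released by misfolded proteins and drives chaperones, NRF2, which is released from KEAP1 and drives antioxidant genes, and the MAP kinase-activated factors that turn on immediate-early genes. ATF4, which drives amino acid and stress genes, is controlled by the translation of its own mRNA under phosphorylated eIF2α.

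Of 12341 genes with enough counts, 27 differed between mercury and non-treated cells at 2 thresholds set together, an adjusted p below 0.05 and a fold change over 2 in either direction (0.219% of the genes tested, edgeR quasi-likelihood test with Benjamini-Hochberg adjustment). Fold changes are given on the log2 scale (LFC), so that the limit lies at 1 and -1. Of these, 19 were higher with mercury (0.154%) and 8 were lower (0.0648%). The 19 included transcription factors of the immediate-early class, MAP kinase phosphatases, stress and chaperone genes, and metal-handling genes. The 8 were 6 histone genes, ID1, and a long noncoding RNA. With the adjusted p alone, 59 genes were higher (0.478%) and 11 were lower (0.0891%), and 43 of these 70 (0.567%) had an LFC between -1 and 1. The median LFC of all genes tested was -0.00169. In each of the 27 genes the 3 mercury libraries lay outside the range of the 3 non-treated libraries, which was also the case for 1606 of all genes tested (13%).

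EGR1, a zinc-finger transcription factor and a classical first responder to growth factors and stress, showed the largest rise among genes with more than a few counts. Its level was 29.0, 34.9, and 35.4 CPM in the non-treated libraries and 297.1, 283.4, and 295.5 CPM in the mercury libraries, an 8.84-fold rise (LFC 3.14, standard error 0.19, adjusted p = 8.57e-21, edgeR). The mercury libraries thus differed among themselves by far less than they differed from the non-treated ones. EGR1 lies on chromosome 5 from 138465479 to 138469303 on the plus strand (GRCh38). Its promoter is shown because it carries a pair of CArG boxes, the site bound by serum response factor, which takes MAP kinase signals to immediate-early genes. The RefSeq promoter (GRCh38.p14, chr5:138465229-138465528, plus strand, 250 bases before to 50 after the start) is printed 5′ to 3′ with the CArG boxes in capitals, beginning at -105 and -83 relative to the start.
EGR1: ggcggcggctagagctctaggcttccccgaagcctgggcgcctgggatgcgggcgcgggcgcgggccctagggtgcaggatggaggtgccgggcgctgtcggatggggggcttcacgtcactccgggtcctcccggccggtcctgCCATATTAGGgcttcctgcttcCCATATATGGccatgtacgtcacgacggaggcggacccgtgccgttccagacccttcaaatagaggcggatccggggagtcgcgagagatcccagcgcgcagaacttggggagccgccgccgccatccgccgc
A CArG box was found on either strand in 1.07% of the 9446 promoters of tested genes that had an entry, in 1 of the 17 promoters of higher genes, that of EGR1, and in 1 of the 6 promoters of lower genes, that of H2AC20. A promoter entry was found for 17 of the 19 higher and 6 of the 8 lower genes. The match describes the letters only, and binding was not measured.

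JUN and JUNB, subunits of the AP-1 transcription factor, rose from high starting levels. JUN was at 276.2, 274.4, and 249.5 CPM without and 548.0, 532.9, and 567.4 CPM with mercury (LFC 1.04, standard error 0.08, adjusted p = 2.02e-15), and JUNB went from 129.0, 108.8, and 92.7 to 246.8, 233.8, and 270.0 CPM (LFC 1.18, standard error 0.12, adjusted p = 1.29e-11). ATF3, a stress-induced repressor of the same protein family, was at 9.24, 9.07, and 13.5 CPM without and 23.5, 35.5, and 33.7 CPM with mercury (LFC 1.55, standard error 0.26, adjusted p = 7.23e-05). The groups did not overlap in any of these genes, as was the case for 13% of all genes tested. HBEGF, a ligand of the EGF receptor that is shed from the cell surface, rose from 80.9, 73.6, and 72.4 to 167.2, 178.1, and 207.4 CPM (LFC 1.28, standard error 0.13, adjusted p = 4.25e-11). CSRNP1, a nuclear factor first found as induced by AXIN1, rose from 16.9, 19.2, and 24.7 to 47.1, 48.3, and 50.2 CPM (LFC 1.27, adjusted p = 0.00409).

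In the list of immediate-early genes, 16 of the 45 members tested were higher and 0 were lower, against 0.478% and 0.0891% of all genes, and the median LFC of the list was 0.66 against -0.00169 for all genes. This list and the lists below were chosen with earlier results of these data known, so their counts are a description. The members with smaller rises included IER2, which went from 524.0, 537.7, and 551.2 to 954.5, 1002.7, and 986.6 CPM (LFC 0.87, adjusted p = 3.95e-10), the growth factor-like matrix protein CCN1 (LFC 0.83, adjusted p = 0.000198), the mRNA decay factor ZFP36L1 (LFC 0.83, adjusted p = 9.96e-10), and the survival factor MCL1 (LFC 0.66, adjusted p = 4.85e-06). KLF6 (LFC 0.68), MAFF (0.81), TRIB1 (0.83), GADD45A (0.93), and CCN2 (0.66) also rose. Several members of the class were near the limit of detection at this depth. FOS, the partner of JUN in AP-1, had 3, 1, and 1 counts without and 9, 20, and 15 counts with mercury (LFC 2.63, standard error 0.97, adjusted p = 0.454), and FOSB and NR4A1 had summed counts of 6 against 33 and 11 against 54 (adjusted p = 0.731 and 0.122). These genes did not pass the test, and they were chosen for mention after their values were seen.

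**Figure D1:**
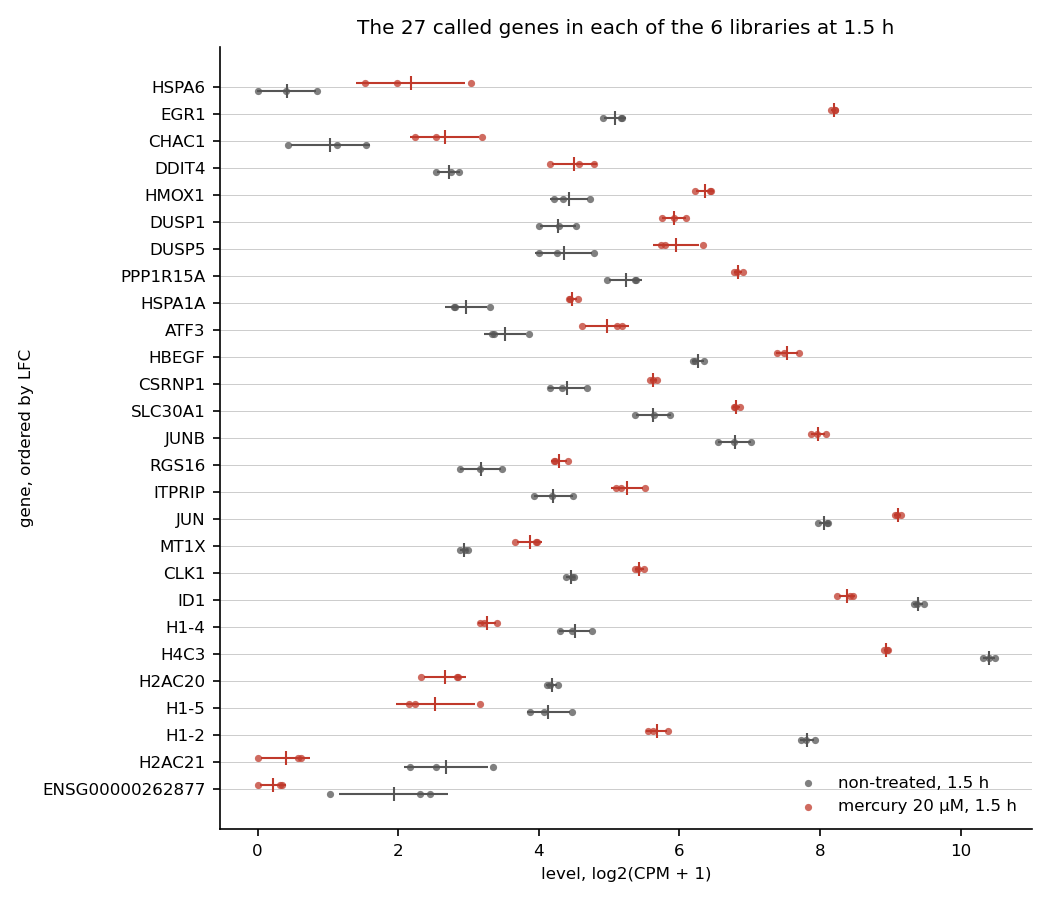
Level of each of the 27 genes past both thresholds in the 6 libraries at 1.5 h (horizontal axis, log2(CPM + 1)), with genes on the vertical axis ordered by LFC. Points are libraries, the tick is the mean, and the bar is ± 1 SD (n = 3 per group). Red and grey points do not overlap in any of the 27 genes, and the red points lie to the right in 19 genes and to the left in 8.

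Of the MAP kinase phosphatases, which switch off the kinases that induce them, DUSP1, DUSP5, and DUSP6 rose. DUSP1, which acts on p38, JNK, and ERK in the nucleus, was at 18.5, 22, and 15.1 CPM without and 53, 67.2, and 59.6 CPM with mercury (LFC 1.69, standard error 0.27, adjusted p = 2.58e-05). DUSP5, which is specific to ERK, rose from 18.2, 15, and 26.7 to 54.3, 52.3, and 79.7 CPM (LFC 1.65, standard error 0.20, adjusted p = 4.63e-09), and DUSP6, its cytoplasmic counterpart, had an LFC of 0.80 (adjusted p = 0.0288), which was lost when any 1 of 5 of the 6 libraries was left out (adjusted p 0.0716 to 0.286). DUSP4 (LFC -0.03), DUSP14 (-0.01), DUSP16 (-0.31), and DUSP8 (0.82) did not pass. DUSP1, DUSP5, and DUSP6 were the 3 members higher among 17 feedback genes of the MAPK pathway, against 0.478% of all genes. In this list 0 were lower, against 0.0891%, and the list median was 0.33. SPRY2, an inhibitor of receptor signalling in the same list, had an LFC of 1.43 without passing (adjusted p = 0.213). RGS16, which shuts off G protein signalling, went from 7.96, 10.1, and 6.37 to 17.7, 17.6, and 20.3 CPM (LFC 1.17, adjusted p = 0.0354). The promoter of DUSP1 is shown because it holds a full cyclic AMP response element, the site of CREB and ATF factors, in capitals at -125 (GRCh38.p14, chr5:172771146-172771445, minus strand).
DUSP1: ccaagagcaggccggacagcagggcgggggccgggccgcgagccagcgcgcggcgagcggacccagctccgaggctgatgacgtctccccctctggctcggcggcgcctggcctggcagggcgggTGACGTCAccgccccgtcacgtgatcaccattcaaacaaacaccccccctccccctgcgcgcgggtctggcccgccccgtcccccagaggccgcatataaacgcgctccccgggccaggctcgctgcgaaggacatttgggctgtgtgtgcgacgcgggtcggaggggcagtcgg
This element (TGACGTCA, a palindrome) was present in 3.47% of all promoters and in 2 of the 17 promoters of higher genes, DUSP1 and PPP1R15A.

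Genes of the integrated stress response, the pathway that runs through eIF2α and ATF4, formed another group, which overlapped with the immediate-early genes. ATF3, GADD45A, and PPP1R15A were members of the immediate-early list and of the list of ATF4 targets. DDIT4, an inhibitor of the growth kinase mTORC1, rose from 5.73, 6.28, and 4.78 to 22.7, 16.8, and 26.7 CPM (LFC 1.97, standard error 0.27, adjusted p = 2.52e-07). PPP1R15A, also called GADD34, which recruits the phosphatase that restores eIF2α, was at 40.1, 40.8, and 30.2 CPM without and 109.1, 111.7, and 118.5 CPM with mercury (LFC 1.60, standard error 0.16, adjusted p = 5.78e-12). In both genes the lowest mercury library was over 2 times the highest non-treated library. CHAC1, which degrades glutathione, rested on few reads, with 10 counts summed over the non-treated and 65 over the mercury libraries (ratio 4.78, 95% counting interval 2.44 to 10.4, and LFC 2.22, adjusted p = 0.00959). Of 44 ATF4 targets tested, 11 were higher and 0 lower, against 0.478% and 0.0891% of all genes, with a list median LFC of 0.12. Beyond the genes above, these were ATF4 itself (283.8, 299.5, and 333.1 against 440.2, 450.0, and 442.9 CPM, LFC 0.54, adjusted p = 0.0212), ATF3, GADD45A, the transcription factor CEBPB (0.56), the amino acid transporters SLC7A11 (0.46) and SLC38A2 (0.48), the stress sensor SESN2 (0.92), and HERPUD1 (0.75), a component of degradation at the endoplasmic reticulum (ER). DDIT3, the CHOP factor of late ER stress, did not pass (LFC 0.53, adjusted p = 0.713). Neither did the ATF4 targets TRIB3 (LFC 0.14), SLC7A5 (-0.15), and PSAT1 (-0.03), and 14 of the 44 members had an LFC below 0. Of 27 ER chaperones and XBP1 targets, HERPUD1 was the member that passed, against 0.478% of all genes higher, and the list median was -0.005.

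Chaperone genes rose over a wide range of levels. HSPA6, the strictly inducible HSP70, had 1, 0, and 2 counts in the non-treated libraries and 47 counts in all in the mercury libraries, at 2.94, 1.87, and 7.18 CPM, a ratio of 11.5 with a 95% counting interval of 3.71 to 57.8 (LFC 3.39, standard error 0.69, adjusted p = 0.00136). HSPA1A, the major inducible HSP70, rose from 8.92, 5.93, and 5.97 to 22.5, 20.8, and 20.5 CPM (LFC 1.59, standard error 0.27, adjusted p = 8.09e-05). Its neighbouring copy HSPA1B rose from 58.0, 67.3, and 56.9 to 122.8, 100.0, and 130.4 CPM (LFC 0.95, adjusted p = 0.000104). HSPA1A and HSPA1B encode the same protein, and within the final 400 bases of the HSPA1A transcript 6.84% of all 50-base windows also occurred in HSPA1B, so their values are uncertain where reads fell in such windows. Of 39 HSF1 targets, 8 were higher and 0 lower, against 0.478% and 0.0891% of all genes, with a list median LFC of 0.18. The others were the HSP40 cochaperones DNAJB1 (151.0, 144.7, and 177.1 against 233.5, 277.3, and 283.1 CPM, LFC 0.75, adjusted p = 3.39e-05) and DNAJA1 (0.34), the HSP70 nucleotide exchange factors HSPH1 (0.36) and BAG3 (0.59), and the HSP90 cochaperone CHORDC1 (0.53). The number fell to 4 without mercury replicate 3, and HSPA6 then had an adjusted p of 0.154.

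The promoters of both HSP70 genes are shown for their heat-shock elements, inverted GAA repeats bound by HSF1 (searched as GAANNTTC, a palindrome), in capitals at -106 in HSPA1A and at -180 and -69 in HSPA6 (GRCh38.p14, chr6:31815293-31815592 and chr1:161524290-161524589, both plus strand).
HSPA1A: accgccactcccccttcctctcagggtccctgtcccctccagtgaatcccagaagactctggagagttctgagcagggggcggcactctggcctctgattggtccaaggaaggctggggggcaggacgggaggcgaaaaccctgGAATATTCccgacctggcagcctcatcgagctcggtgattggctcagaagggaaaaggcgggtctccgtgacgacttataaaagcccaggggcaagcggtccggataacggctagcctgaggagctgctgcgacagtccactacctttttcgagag
HSPA6: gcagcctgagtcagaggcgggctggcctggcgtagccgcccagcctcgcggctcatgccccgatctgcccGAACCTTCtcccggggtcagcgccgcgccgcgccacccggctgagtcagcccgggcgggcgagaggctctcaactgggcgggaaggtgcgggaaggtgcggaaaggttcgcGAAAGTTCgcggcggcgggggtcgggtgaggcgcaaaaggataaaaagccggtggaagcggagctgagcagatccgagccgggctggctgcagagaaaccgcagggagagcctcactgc
Among all promoters 4.70% held this element. It occurred in 4 of the 17 promoters of higher genes, HSPA1A, HSPA6, ITPRIP, and JUN, and in 1 of the 6 promoters of lower genes, that of ID1.

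Among the metal-handling genes, the zinc exporter SLC30A1 and the metallothioneins MT1X and MT1E rose. SLC30A1 pumps zinc out of the cytosol and is a target of MTF1, as are the metallothioneins, cysteine-rich proteins that bind zinc, cadmium, and mercury. SLC30A1 was at 40.5, 57.5, and 48.9 CPM without and 109.7, 108.2, and 115.6 CPM with mercury (LFC 1.19, standard error 0.13, adjusted p = 9.82e-10). MT1X rose from 6.69, 6.97, and 6.37 to 14.7, 11.7, and 14.6 CPM (LFC 1.03, adjusted p = 0.0268), and MT1E rose from 251.9, 229.5, and 188.6 to 407.9, 386.6, and 380.1 CPM (LFC 0.81, standard error 0.11, adjusted p = 1.21e-07). MT2A was by far the most abundant of them, at 2591.1, 2614.3, and 2603.8 CPM without and 3029.9, 3436.3, and 3373.7 CPM with mercury. Its groups did not overlap, yet it did not pass (LFC 0.33, standard error 0.19, adjusted p = 0.979), but it passed in the fit of the 6 compared libraries alone (adjusted p = 1.28e-05) and without the filter on low counts (adjusted p = 0.00306). For MT1X, 50.4% of such windows occurred in other metallothionein genes or their pseudogenes, against 1.42% for MT1E and 11.1% for MT2A, so the MT1X value may rest on the part of its transcript that is its own. The zinc importer SLC39A10, which is known to move opposite to SLC30A1 under zinc, had an LFC of 0.02 (adjusted p = 0.999). Of the 14 tested genes of the list, 3 were higher and 0 lower, against 0.478% and 0.0891% of all genes.

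The promoters of SLC30A1 and MT1X are shown because their metal response elements are the sites of MTF1. The core (TGCACNC or TGCGCNC on either strand) is in capitals, at -49 and 25 in SLC30A1 and at -150, -122, -78, and -53 in MT1X (GRCh38.p14, chr1:211579112-211579411, minus strand, and chr16:56682220-56682519, plus strand).
SLC30A1: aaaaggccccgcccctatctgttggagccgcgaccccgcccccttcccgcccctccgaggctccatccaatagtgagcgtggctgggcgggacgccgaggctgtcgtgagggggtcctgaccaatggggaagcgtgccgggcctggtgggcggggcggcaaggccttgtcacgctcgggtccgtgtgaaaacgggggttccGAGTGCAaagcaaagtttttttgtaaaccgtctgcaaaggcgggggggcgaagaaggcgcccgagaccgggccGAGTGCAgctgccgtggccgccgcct
MT1X: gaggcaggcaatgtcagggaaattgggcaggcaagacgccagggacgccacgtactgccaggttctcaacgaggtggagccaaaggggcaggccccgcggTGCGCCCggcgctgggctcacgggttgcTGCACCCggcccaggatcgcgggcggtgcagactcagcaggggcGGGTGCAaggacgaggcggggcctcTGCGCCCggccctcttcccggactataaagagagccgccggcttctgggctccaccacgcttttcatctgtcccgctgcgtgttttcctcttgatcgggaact
The core is short and was common, in 39.4% of all promoters and in 8 of the 17 promoters of higher genes.

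HMOX1, the haem-degrading enzyme controlled by NRF2 and BACH1, was among the strongest rises, from 19.4, 25.5, and 17.5 to 86.4, 73.6, and 85.4 CPM (LFC 1.97, standard error 0.18, adjusted p = 4.33e-13). Of 39 NRF2 targets, 3 were higher and 0 lower, against 0.478% and 0.0891% of all genes, with a list median LFC of 0.08. GCLM, the regulatory subunit of the enzyme that makes the glutathione precursor, rose by an LFC of 0.44 (adjusted p = 0.00673). SLC7A11, the cystine importer, rose by 0.46 (adjusted p = 0.0354) and was also counted among the ATF4 targets. NQO1 (LFC 0.08) and TXNRD1 (0.22), standard NRF2 targets picked here after their values were seen, had adjusted p values of 0.997. The number of members higher fell to 1, HMOX1, without mercury replicate 1 and without non-treated replicate 2. An antioxidant response element (TGACNNNGC on either strand) was found in 6 of the 17 promoters of higher genes and in 15.2% of all promoters.

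Other genes past both thresholds were ITPRIP, a membrane protein that binds the inositol trisphosphate receptor (17.2, 14.3, and 21.5 against 34.8, 33.1, and 44.5 CPM, LFC 1.09, adjusted p = 0.00289), and CLK1, a kinase of splicing factors (21.7, 19.9, and 21.1 against 44.1, 40.5, and 41.6 CPM, LFC 1.01, adjusted p = 0.000909). CLK1 was the single member past the test among 15 CLK kinases and SR factors. CCN1 and CCN2 passed among 18 targets of YAP and serum response factor. In both lists the members that passed were higher, against 0.478% of all genes. By edgeR, 0 members passed among 16 NF-kB feedback and cytokine genes, 22 p53 targets, 34 proteasome and ubiquitin genes, 15 circadian genes, and 16 glycolysis genes, where 2, 4, 2, 1, and 1 members had an unadjusted p under 0.05. The proapoptotic p53 target BBC3 had the lowest adjusted p of those lists (22.6, 24.4, and 21.1 against 40.4, 39.7, and 28.7 CPM, LFC 0.67, adjusted p = 0.0600), and passed with DESeq2 (adjusted p = 0.0351) and without mercury replicate 3 (adjusted p = 0.0218). The glucose transporter gene SLC2A3 (LFC 0.62, adjusted p = 0.0635) also passed with DESeq2.

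**Figure D2:**
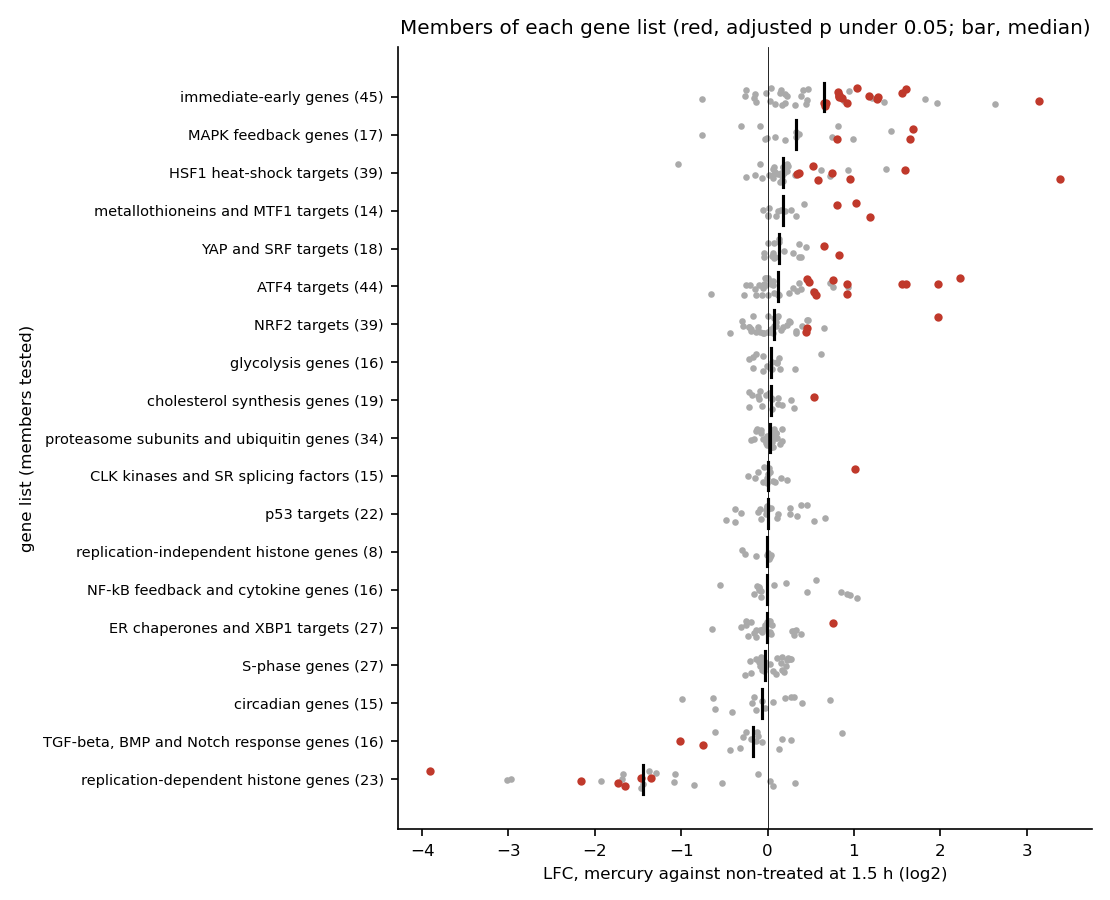
LFC at 1.5 h of mercury (horizontal axis, log2) of the members tested of each gene list (vertical axis, number of members in brackets). Each point is a gene, red at an adjusted p under 0.05, and the black bar is the median of the list. Immediate-early genes have the highest median (0.66) and replication-dependent histone genes the lowest (-1.44).

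Most of the genes that fell were histone genes. Replication-dependent histones are made in S phase from clustered, intronless genes, whose mRNAs mostly end in a stem-loop instead of a poly(A) tail. Since the library preparation primes on poly(A), the counts cover only the polyadenylated share of these mRNAs. H4C3, which encodes histone H4, was at 1356.2, 1280.1, and 1437.4 CPM without and 478.7, 492.4, and 499.4 CPM with mercury (LFC -1.47, standard error 0.17, adjusted p = 3.91e-09). The linker histone H1-2 fell from 222.0, 211.3, and 242.4 to 56.4, 45.9, and 48.5 CPM (LFC -2.16, standard error 0.20, adjusted p = 4.33e-13). Counts of the polyadenylated form of both transcripts were much lower with mercury at 1.5 h, with narrow spreads in both groups. Whether their total level fell was not measured. The linker histones H1-4 (21.3, 18.8, and 25.9 against 8.29, 9.60, and 7.92 CPM, LFC -1.35, adjusted p = 0.00446) and H1-5 (15.9, 13.6, and 21.1 against 3.74, 8, and 3.46 CPM, LFC -1.73, adjusted p = 0.00539) and the H2A genes H2AC20 (16.9, 16.4, and 18.3 against 6.15, 4, and 6.19 CPM, LFC -1.65, adjusted p = 0.000955) and H2AC21 (48 against 4 summed counts, ratio 0.0613, 95% counting interval 0.0160 to 0.167) fell as well. H2AC20 shared 28.5% of these windows with other H2A genes, so its reads could be split among copies.

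Of all 23 replication-dependent histone genes tested, 6 were lower and 0 higher, against 0.0891% and 0.478% of all genes, 20 had an LFC below 0, and the median LFC was -1.44. This list was made after the first values were seen, and its counts are a description. Together these genes took 0.176%, 0.163%, and 0.187% of the counts of the non-treated libraries and 0.0602%, 0.0610%, and 0.0611% of those of the mercury libraries. The 8 replication-independent histone genes tested, which have introns and poly(A) tails, had a median LFC of -0.001, with 0 past the test. H3-3B, for one, was at 1581.1, 1527.7, and 1503.1 CPM without and 1493.9, 1512.7, and 1571.8 CPM with mercury. The 27 S-phase genes tested (replication factors such as the MCM subunits, PCNA, and RRM2, and the histone mRNA-binding protein SLBP), also listed after values were seen, had LFC values from -0.26 to 0.27 with a median of -0.03, and 0 passed. By an unadjusted p under 0.05, 0 of the 8 and 1 of the 27 passed, and DESeq2 called 0 in both lists.

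ID1, a dominant-negative helix-loop-helix factor downstream of BMP signalling, fell from 645.3, 661.8, and 711.9 to 352.2, 303.1, and 341.7 CPM (LFC -1.02, standard error 0.09, adjusted p = 1.42e-13). Its relative ID2 fell from 61.8, 51.3, and 57.7 to 35.8, 30.7, and 34.9 CPM (LFC -0.75, adjusted p = 0.00382), and ID3 had an LFC of -0.29 without passing (adjusted p = 0.0970), although it passed with DESeq2 (0.0211), with only the libraries compared (0.0397), and without non-treated replicate 3 (0.0396). ID1 and ID2 were the 2 members lower among 16 TGF-beta, BMP, and Notch response genes, against 0.0891% of all genes. TXNIP, an inhibitor of thioredoxin whose mRNA is short-lived, went from 57.7, 50.6, and 50.1 to 30, 40.5, and 28.5 CPM (LFC -0.68, adjusted p = 0.0154), and BDKRB1, a bradykinin receptor gene, from 31.9, 31.7, and 29.1 to 22.2, 10.9, and 21.3 CPM (LFC -0.77, adjusted p = 0.0442). The long noncoding RNA ENSG00000262877 on chromosome 17 had 27 counts without and 2 with mercury (ratio 0.0545, 95% counting interval 0.00628 to 0.217, adjusted p = 0.0257).

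The genes past both thresholds were mostly short, on either side. By the exons of the main transcript in GENCODE version 44, 4 of the 19 higher and 6 of the 8 lower genes had a single exon, against 6.71% of all genes tested, and 14 of the 19 and all 8 had at most 4 exons, against 27.1%. The median genomic span was 5767 bases for the higher and 759 bases for the lower genes, against 31632 bases for all genes tested. The single-exon lower genes were the histone genes, so the values of the lower side mostly describe these. Among the higher genes, ATF3 spanned 55444 and ITPRIP 28768 bases. The single-exon genes that rose were HSPA6, HSPA1A, JUN, and JUNB. A TATA box (TATAAA on either strand) occurred in 5 of the 17 promoters of higher genes, against 5.41% of all promoters. It occurred in 4 of the 6 promoters of lower genes, those of the histone genes H1-4, H2AC20, and H2AC21 and that of ID1. These shares describe the genes called and were not tested.

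Of the 27 genes, 17 kept an adjusted p under 0.05 in all 12 alternatives, which comprise other settings and each of the 6 libraries left out in turn. H2AC21 kept it in the 11 that gave one, since DESeq2 gave it no adjusted p. CSRNP1 did not pass without non-treated replicate 1 (adjusted p = 0.0902), ITPRIP without mercury replicate 3 (0.0716) and without non-treated replicate 2 (0.0695), H1-4 without mercury replicate 3 (0.0522) and non-treated replicate 3 (0.0676), and H1-5 without mercury replicates 1 (0.0827) and 3 (0.117) and non-treated replicate 3 (0.0885). CHAC1 was lost without mercury replicate 3 (0.246), non-treated replicate 2 (0.188), or non-treated replicate 3 (0.0676), and HSPA6 without mercury replicate 3 (0.154). RGS16 was lost without any 1 of the 6 libraries (0.0509 to 0.341). MT1X was lost without any but mercury replicate 2 (0.108 to 0.167), and ENSG00000262877 without any but non-treated replicate 2 (0.102 to 0.211). In the fit of the 6 compared libraries alone, CHAC1 (0.0509) and MT1X (0.0884) were lost as well, and ENSG00000262877 was lost without the filter on low counts (0.0673). Of the 43 genes with smaller changes, 13 kept their call throughout: MT1E, DNAJB1, HSPA1B, CCN1, ZBTB2, GADD45A, MCL1, RND3, KLF6, SLC38A2, ZFP36L1, IER2, and SERTAD1. Calls that hung on 1 library included those of HERPUD1 (adjusted p = 0.0723 without mercury replicate 2), CEBPB (0.288 without non-treated replicate 3), and SESN2, TRIB1, and ABL2 (0.267, 0.135, and 0.120 without non-treated replicate 1). CCN2 was lost without any 1 of the 6 libraries (0.0513 to 0.403) and with DESeq2 (0.0996), and ATF4 without any but non-treated replicate 3 (0.0697 to 0.209). Others, among them ID2, TXNIP, and BDKRB1, lost the call when any 1 of at least 2 libraries was left out.

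Mitochondrially encoded genes took 6.64% to 7.94% of counts without and 6.53% to 7.30% with mercury, and ribosomal protein genes took 10.2% to 10.6% and 10.2% to 10.7%. The summed astrocyte markers ranged from 4990 to 5922 CPM without and from 5252 to 5446 CPM with mercury. Most of this sum was VIM, with a mean of 4961.1 CPM without and 4815.0 CPM with mercury, so it says little on the other astrocyte markers. The summed fibroblast markers ranged from 1213 to 1295 and from 1185 to 1280 CPM. Neuron markers summed to 20.9 to 29.6 CPM over all 6 libraries, oligodendrocyte and leukocyte markers to at most 2.96 CPM, and endothelial markers to 0 counts. The groups overlapped in each of these sums. By edgeR 0 of the 14 markers tested passed, with 1 at an unadjusted p under 0.05, and DESeq2 called 0.

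The later times of mercury, measured in other libraries against their own non-treated cells, show how the first genes went on. All 19 genes higher at 1.5 h were also higher by an adjusted p under 0.05 at 3 h (edgeR, against 1.39% of all genes), 16 at 6 h (4.49%), 17 at 12 h (8.89%), and 19 at 24 h (13.9%). Their median LFC was 1.55 at 1.5 h and 1.92, 1.47, 1.79, and 1.89 at the later times. All 8 lower genes stayed below 0 at every time, but 2 of 8 passed at 3 h (0.154% of all genes), 4 at 6 h (2.99%), 5 at 12 h (7.16%), and 8 at 24 h (13.9%), with a median LFC of -1.69 at first and -0.74, -0.61, -1.07, and -1.25 at the 4 later times. The count at 3 h was 1 without mercury 3 h replicate 2 or non-treated 3 h replicate 2. The genes were chosen by their values at 1.5 h, so the medians at that time may be too large in size. Of the 8 lower genes, H1-2 alone passed the test of the difference between 3 and 1.5 h.

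The courses took several shapes. Some genes were highest at once. The LFC of EGR1 was 3.14 at 1.5 h and 1.66, 0.80, 1.06, and 0.67 at 3, 6, 12, and 24 h, and that of JUN was 1.04 and then 0.54, 0.33, 0.19, and 0.37. The drop from 1.5 to 3 h was itself past the test of the difference of effects for EGR1 (-1.49, adjusted p = 0.0106) and JUN (-0.50, adjusted p = 0.0465). The difference of JUN was lost in 13 of 18 alternatives (adjusted p up to 0.243), and that of EGR1 was not past the test without non-treated 1.5 h replicate 1, mercury 3 h replicate 1, or non-treated 3 h replicates 1 or 3 (adjusted p up to 0.333). Other genes had larger changes later. HMOX1 went from an LFC of 1.97 to 4.69, 5.82, 6.23, and 7.21 (difference at 3 h 2.72, adjusted p = 8.48e-12), HSPA1A from 1.59 to 3.5, 4.37, 5.65, and 6.51 (difference 1.91, adjusted p = 0.0125), and HSPA1B from 0.95 to 3.03, 3.5, 4.03, and 4.80 (difference 2.08, adjusted p = 6.73e-09). Without non-treated 1.5 h replicate 1 or non-treated 3 h replicate 3 the difference of HSPA1A did not pass (adjusted p up to 0.416). Further genes stayed in a narrow range. SLC30A1 had LFC values between 0.94 and 1.59, DUSP1 between 1.47 and 2.20, and CHAC1 between 2.22 and 3.36.

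**Figure D3:**
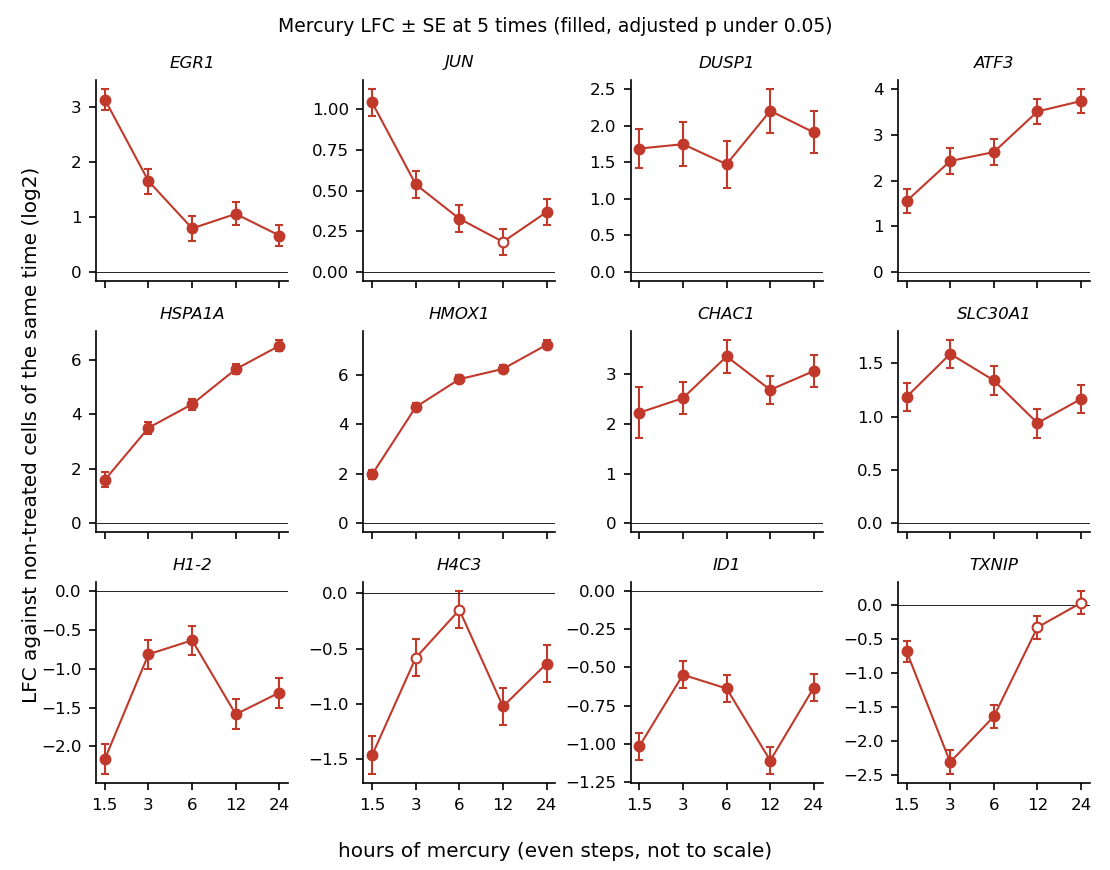
LFC of mercury against time-matched non-treated cells (vertical axes, log2, scaled per gene) at the 5 sampling times (horizontal axes, h, even steps) for 12 genes, with bars of ± 1 standard error from the model (3 libraries per group). Filled points had an adjusted p under 0.05. EGR1 and JUN are highest at 1.5 h, HSPA1A and HMOX1 climb to 24 h, and H1-2 and H4C3 are lowest at 1.5 h.

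Of all genes tested, 14 had an effect at 3 h that differed from that at 1.5 h (0.113%). The LFC of TXNIP was lower still at 3 h, at -2.31 (difference -1.63, adjusted p = 1.65e-05), and was 0.03 at 24 h. For H1-2 the fall against time-matched cells was smaller at 3 h, with LFC -0.81 (difference 1.35, adjusted p = 0.00813). GDF15, a stress cytokine, and STC2, a secreted glycoprotein, were not past the test at 1.5 h (LFC 0.34 and 0.36, adjusted p = 0.997 and 0.330) and were at 2.98 and 1.33 at 3 h (adjusted p = 7.51e-08 and 4.57e-14). The count of 14 comprised 10 genes with a higher effect at 3 h (0.081%) and 4 with a lower one (0.0324%), and fell to between 6 and 10 and between 1 and 4 when a library was left out.

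Arsenic and cadmium at the same time were set against the same 3 non-treated libraries. Few genes passed the adjusted p by edgeR, 9 with arsenic (0.0729%) and 0 with cadmium (0%). With cadmium 991 genes had an unadjusted p under 0.05, more than the 694 with mercury, and DESeq2 called 4 with cadmium. Of the 27 mercury genes, arsenic raised 1 by the adjusted p, PPP1R15A (LFC 0.79, adjusted p = 0.0222). The 19 higher genes had a median LFC of 0.24 with arsenic and 0.24 with cadmium, and the 8 lower genes 0.19 and -0.10. The same 3 non-treated libraries served in choosing the 27 genes, so their arsenic and cadmium values are not independent of the choice. The concentrations differed between the metals, having been chosen for equal cell death over a longer exposure, and the values stand side by side. EGR1 was at an LFC of 3.14 with mercury, 0.64 with arsenic, and 0.51 with cadmium, and HMOX1 was at 1.97, 0.75, and -0.09. H1-2 and H4C3 were at -2.16 and -1.47 with mercury, 0.34 and 0.47 with arsenic, and -0.15 and 0.12 with cadmium. MT1X had similar LFC values of 1.03 for mercury and 0.99 for cadmium (adjusted p = 0.377 for cadmium), but its mercury call was lost in 6 of 12 alternatives. With arsenic, the highest LFC among the 19 genes was 1.10.

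Set directly against arsenic, mercury libraries were higher in 17 of the 19 genes (0.737% of all genes tested were higher) and lower in 7 of the 8 (0.818%), and set against cadmium they were higher in 17 of 19 (0.535%) and lower in 6 of 8 (0.122%). These tests share the 3 mercury libraries with the comparison that chose the genes, so the counts are a description. The genes that did not pass were CHAC1 (difference 1.12, adjusted p = 0.170), MT1X (0.47, adjusted p = 0.366), and ENSG00000262877 (-3.31, adjusted p = 0.0731) against arsenic, and RGS16 (0.74, adjusted p = 0.332), MT1X (0.04, adjusted p = 0.972), H2AC21 (-3.05, adjusted p = 0.0503), and ENSG00000262877 (-3.31, adjusted p = 0.127) against cadmium. EGR1 differed by 2.51 from arsenic (adjusted p = 3.70e-17) and by 2.63 from cadmium (adjusted p = 3.92e-18).

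**Figure D4:**
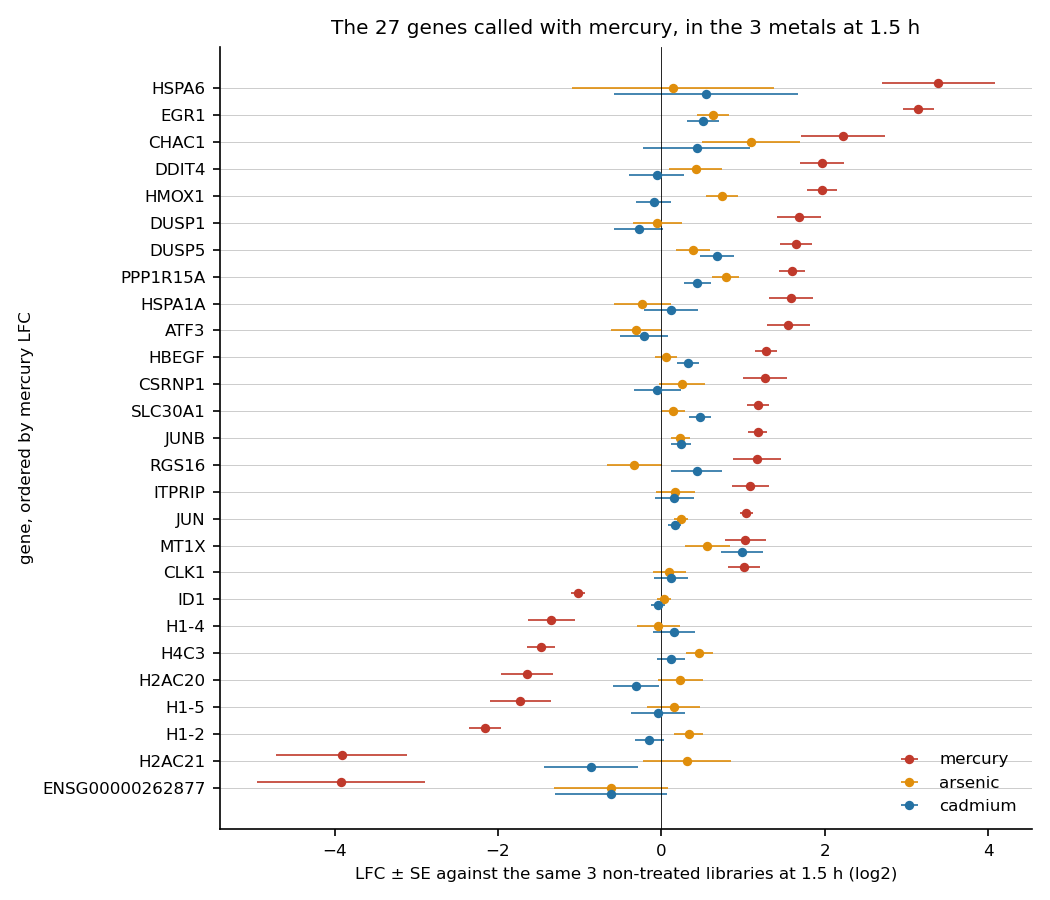
LFC of mercury, arsenic, and cadmium against the same 3 non-treated libraries at 1.5 h (horizontal axis, log2) for the 27 genes past both thresholds with mercury (vertical axis), with bars of ± 1 standard error from the model (3 libraries per group). Mercury points lie beyond 1 or -1 by the choice of the genes, whereas arsenic points lie from -0.33 to 1.10 and cadmium points from -0.28 to 0.99 in the 19 higher genes.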

How the data were processed

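RNA of 1321N1 cells was measured in 60 libraries (20 groups of 3) by 3′ mRNA sequencing. Per the study's methods and processing notes, alignment by the authors used STAR 2.7.9a on GRCh38, and the reads overlapping each gene of a GENCODE annotation were counted in Union mode. The deposited values are whole-number counts, not normalized, for 62703 genes and 92 spike-in sequences with 0 counts. Each column named 1 sample.

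Counts were tested with edgeR 4.0.16 (R 4.3.3) by quasi-likelihood F-tests in 1 model of all 60 libraries with a coefficient per metal and time, TMM factors (0.934 to 1.03), filterByExpr (minimum count 10, minimum total 15), and Benjamini-Hochberg adjustment within each comparison over 12341 genes. The common biological coefficient of variation was 0.12, with 40 residual degrees of freedom. CPM values are relative to TMM-normalized library sizes. Library totals ranged from 2215276 to 4404609 counts, and counting intervals (exact, 95%) cover counting error only. The code was tested on simulated data.

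Named genes were all genes past both thresholds, the 3 members of each list with the smallest p, the tested metallothioneins, SLC30A1 and SLC39A10, the 5 largest rises and 5 largest falls with an LFC between -1 and 1 and a mean of at least 50 counts, and the 5 largest differences of effects between 3 and 1.5 h in each direction. Other genes were named after their values were seen. Members and lists were chosen with earlier results of these data known, and the histone and S-phase lists after values were seen. Alternatives were other size factors (RLE), DESeq2 1.42.0 (also with ashr 2.2.63), no filter, a stricter filter (minimum count 30), a replicate block, the compared libraries alone, and each library left out. Same-numbered libraries did not deviate together (correlations 0.031, 0.024, and 0.012) and were not treated as pairs. Exons were taken from GENCODE version 44 and promoters from RefSeq (GRCh38.p14). A result that is withheld is not reported here.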

Additional observations from a re-analysis of the deposited data

Results flagged for a closer look

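For 14 genes the mercury effect differed between 3 h and 1.5 h in the test of the difference itself (edgeR, adjusted p under 0.05). The differences are on the log2 scale, as the effect at 3 h minus the effect at 1.5 h. The effect was lower at 3 h for TXNIP (-1.63), EGR1 (-1.49), ADM (-0.69), and JUN (-0.50). For H1-2 (1.35) the fall was smaller at 3 h. The rise was larger at 3 h for HMOX1 (2.72), GDF15 (2.63), HSPA1B (2.08), HSPA1A (1.91), SESN2 (1.49), STC2 (0.97), DNAJB1 (0.82), SLC7A11 (0.72), and HSPH1 (0.48). The differences of HMOX1, HSPA1B, H1-2, TXNIP, and STC2 passed in all 18 alternatives. The call was lost in 1 of the 18 for SESN2, 2 for HSPA1A, 4 for EGR1, 5 each for DNAJB1 and ADM, 8 for GDF15 (adjusted p up to 0.301), 9 for SLC7A11, 13 for JUN, and 14 for HSPH1.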

How the results depend on the processing

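Of 1514 values of single genes under alternatives, 1293 kept their direction and side of the threshold, 205 lost and 11 gained the call, and 5 reversed, none of them a called value: PDGFRA (-0.15 without mercury replicate 1 and -0.09 without non-treated replicate 3, up to 0.17 without the others) and SLC39A10 (-0.18 without mercury replicate 3, -0.05 and -0.03 without non-treated replicates 1 and 2, up to 0.17 without the others). The 27 genes all kept an adjusted p under 0.05 with RLE factors and the replicate block. The number was 25 with DESeq2, which gave the other 2 no adjusted p, 26 without the filter, and 25 with only the libraries compared.

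Genes lower past both thresholds numbered 5 with LFC shrunk by ashr. With only the libraries compared, genes lower by adjusted p numbered 23, HSF1 targets 13, differences of effects that were higher 18, and genes higher and lower than with cadmium 218 and 111. Without the filter, the differences of effects that were higher numbered 16, genes lower than with arsenic 169, genes higher and lower than with cadmium 124 and 23, and genes lower at 1.5 and 3 h 4, as with the stricter filter. DESeq2 called 1 of the YAP and SRF targets. The causes were not tested.

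Leaving out 1 library gave 14 to 21 genes higher and 4 to 9 lower past both thresholds (4 without non-treated replicate 3, 5 without mercury replicate 3), and 37 to 48 higher and 7 to 11 lower by adjusted p (37 and 39 higher without non-treated replicates 3 and 1, 7 lower without mercury replicate 3). Differences of effects ranged from 6 to 10 higher and 1 to 4 lower. Genes higher than with arsenic ranged from 38 to 172 and lower from 11 to 286 (172 and 286 without arsenic replicate 3), and against cadmium from 40 to 51 and 7 to 12. Of the genes called at 1.5 h, 17 to 19 higher and 1 to 3 lower passed at 3 h. List counts ranged from 12 to 15 (immediate-early), 8 to 9 (ATF4), 4 to 9 (HSF1), 1 to 3 (NRF2, and TGF-beta, BMP and Notch), 2 to 3 (metallothioneins, and MAPK feedback), and 0 to 1 (ER chaperones, and cholesterol), and were 1 for YAP and SRF targets and for CLK and SR genes.

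The labels share replicate numbers between groups. With the replicate block, 20 genes were higher and 8 lower past both thresholds, 61 and 11 by adjusted p, and the differences of effects numbered 9 and 3. Only the number is shared, and the differences of JUN and HSPH1 were the calls that the block changed among those named.

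Genes with few counts, such as HSPA6, CHAC1, FOS, and H2AC21, are limited by depth, since 3 counts correspond to about 1 CPM in a library.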
